A study of Homo sapiens with 6 samples.

Results

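TOMM40 and the 8 other genes named for the translocase of the outer mitochondrial membrane are described here in T24 cells, an established human bladder cancer line, after knockdown of the circular RNA circ235. The 9 genes, of 58288 in the count table, were chosen by name, with earlier results of these data known. TOMM40 itself was selected on these data for having fewer transcripts under both siRNAs. Polyadenylated RNA was sequenced from 3 conditions with 2 biological replicates each, which makes 6 libraries. The control group, NC, received siControl, the si-circ235-1 group siRNA1 and the si-circ235-2 group siRNA2. Both siRNAs were designed against the back-splice junction of circ235, which is made from exons of CCNY, and poly(A) selection does not measure circ235 itself, so the depth of the knockdown cannot be read from these libraries. All 6 libraries came from 1 cell line and carried no other allele or agent in the labels, and no batch was recorded. The libraries held 15373992 to 19912893 counted reads, and replicates of 1 condition differed beyond sampling noise, so the spread between 2 libraries sets the precision of the values.

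Most mitochondrial proteins are made in the cytosol and enter the organelle through this translocase. The receptors TOMM20, TOMM22 and TOMM70 recognise precursors, TOMM40 forms the β-barrel channel that they cross, and the small subunits TOMM5, TOMM6 and TOMM7 support the assembly and stability of the complex. TOMM40L is a paralog of the channel protein, and TOMM34 is a cytosolic cochaperone of HSP70 and HSP90 that helps to keep precursors unfolded. Precursors then pass to the TIM23 or TIM22 complex of the inner membrane, to the small TIM chaperones of the intermembrane space, or to the sorting and assembly complex of the outer membrane.

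The cells carried the transcripts of an epithelial-derived line with mesenchymal features. The keratin genes KRT7, KRT8 and KRT18 and the mesenchymal gene VIM each stood at 499 CPM or more in every library (CPM, the reads of a gene relative to all reads of its library after TMM scaling), whereas KRT19, CDH1 and KRT5 were at or near 0. Of 8 genes of urothelial differentiation, 5 stayed below 1 CPM in all 6 libraries, and UPK3A and KRT20 had no read in any. PPARG was present, at 22.6 and 23.2 CPM in NC and 39.5 to 51.1 CPM in the knockdown libraries. FOXA1 stood at 1.59 to 3.42 CPM and GATA3 at 0.0656 to 1.12 CPM. Markers of other cell types were close to absent, with summed levels of at most 0.183 CPM for 3 leukocyte genes, 2.29 CPM for 2 endothelial genes and 1.47 CPM for 2 fibroblast genes. In these bulk libraries, fewer cells of a kind and less RNA per cell cannot be told apart.

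The study followed circ235 to miR-330-5p, so the mature miRNA is shown first, with 4 of the 12 words in the members' 3′ UTRs that match its seed, as examples of a match to all 7 seed bases (TOMM34, TOMM40L) and to 6 of them (TOMM40, TOMM22). In the miRNA (RefSeq, GRCh38.p14) capitals mark the seed, bases 2 to 8. In the transcript stretches (GENCODE 29, GRCh38) capitals mark the bases that match the seed.
miR-330-5p: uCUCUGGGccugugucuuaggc
TOMM40, chr19:44902549-44902570, + strand: tggaaactgaggcttCCAGAGg
TOMM22, chr22:38684038-38684059, + strand: gtctccactctgataCCAGAGt
TOMM34, chr20:44943063-44943084, − strand: cctgcctgaccttaCCCAGAGa
TOMM40L, chr1:161229453-161229474, + strand: atcctgttttccatCCCAGAGc
The longest annotated 3′ UTR of TOMM40, of 2332 bases, held no match to all 7 seed bases (CCCAGAG) and 1 match to bases 2 to 7 (CCAGAG). This match lay in an exon of 1 of the 4 protein-coding TOMM40 transcripts and outside the exons of the other 3. The 7-base word occurred 3 times in TOMM40L, once in TOMM34 and once in TOMM5, and not in TOMM6, TOMM7, TOMM20, TOMM22 or TOMM70. Over 12129 protein-coding genes tested, 20.5% held the 7-base word and 43.6% the 6-base word in their longest 3′ UTR, with a median length of 1342 bases. The 6-base word was present in 7 of the 9 members, all but TOMM6 and TOMM7, with 5 copies in TOMM40L, 2 in TOMM22 and 1 in each of the others. A word match says only that these letters are present.

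TOMM40 (ENSG00000130204.12, chr19:44890569-44903689, + strand, GRCh38) was the channel gene for which the group was chosen. Its level was 313.8 and 220.3 CPM in the 2 NC libraries, 97.8 and 95.3 CPM in si-circ235-1 and 129.4 and 113.7 CPM in si-circ235-2. All 4 knockdown libraries lay below both NC libraries, and the 2 NC libraries differed from each other more than the 2 libraries of either siRNA did. Averaged over the 2 libraries of a condition, NC had 267.0 ± 66.2 CPM (SD, n = 2), si-circ235-1 had 96.6 ± 1.73 and si-circ235-2 had 121.5 ± 11.1. Against NC the log2 fold change was -1.47 (SE 0.21, 95% interval -1.93 to -1.01) with si-circ235-1 and -1.14 (SE 0.21, -1.59 to -0.68) with si-circ235-2. These contrasts chose the gene and share the NC libraries, so they are given without a test. The intervals take no account of that choice, which may make the falls look larger than they are, and are not read as a test. Without NC replicate 1, the higher of the control libraries, si-circ235-1 stood at a log2 fold change of -1.19 and si-circ235-2 at -0.86.

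The difference between the siRNAs was not itself the rule for choosing TOMM40. It uses the same knockdown libraries, and picking a gene that is low under both may narrow it, so its test is not independent of the choice. The si-circ235-2 libraries were both above the si-circ235-1 libraries, by 0.33 on the log2 scale (SE 0.21, interval -0.12 to 0.79), which did not pass the threshold (adjusted p = 0.223 in edgeR's quasi-likelihood test). This interval does not show that the siRNAs act alike, and without TMM scaling of the libraries the difference was 0.66 with an adjusted p of 0.0125. TMM sets the scale from the bulk of genes, and leaving it out moved the median of all genes in this contrast from 0.04 to 0.37.

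**Figure D1:**
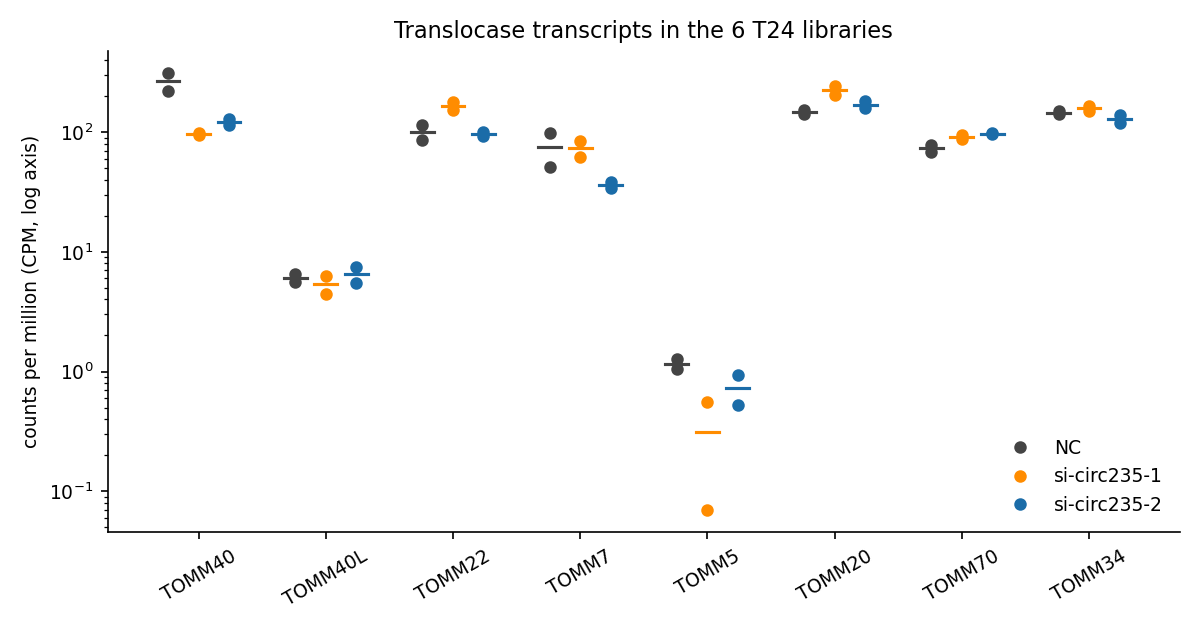
Level of the 8 translocase genes with any reads in each library, in CPM on a log axis, with 1 point per library and a short line at the mean of the 2 libraries of a condition. The TOMM40 points of both siRNAs, at 95.3 to 129.4 CPM, lie below those of NC at 220.3 and 313.8 CPM, whereas all 4 knockdown points of TOMM20 and of TOMM70 lie above those of NC. TOMM6 is not drawn because it had no read.

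The promoter window of TOMM40 (RefSeq, GRCh38.p14, chr19:44891004-44891303, + strand) is printed because it carries a repeated motif, in capitals. It covers 250 bases before and 50 after the RefSeq start at 44891254, which lies 685 bases inside the GENCODE span of the gene and near the starts of its 4 protein-coding transcripts, at 44891220 to 44891236.
TOMM40 promoter: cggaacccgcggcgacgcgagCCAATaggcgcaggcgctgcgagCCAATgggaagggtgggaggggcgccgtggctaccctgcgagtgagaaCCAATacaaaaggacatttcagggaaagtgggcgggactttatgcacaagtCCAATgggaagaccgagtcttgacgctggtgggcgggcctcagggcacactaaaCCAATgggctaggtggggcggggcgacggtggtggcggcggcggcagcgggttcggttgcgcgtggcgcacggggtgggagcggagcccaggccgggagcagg
The letters CCAAT, or ATTGG for the other strand, occurred 5 times in it, all on the sense strand. At least 1 copy was present in 35.7% of 27305 windows of the same length and at least 5 copies in 0.4% of them. The paralog TOMM40L had 3 copies, and the windows of TOMM6, TOMM7, TOMM20, TOMM22, TOMM34 and TOMM70 had none. Promoter windows were found for 8 of the 9 members, all except TOMM5. The letters of a 6-base ETS motif (CCGGAA or TTCCGG) were absent from the TOMM40, TOMM40L and TOMM7 windows and present in those of TOMM6, TOMM20, TOMM22, TOMM34 and TOMM70, against 17.6% of all windows. Of 2 further motifs searched on both strands, the GC box letters GGGCGG occurred 3 times in the TOMM40 window, against at least once in 44.6% of all windows, and the NRF1 motif once, against 6.3%. TOMM34 had 4 GC boxes, TOMM40L and TOMM70 had 1 each, and TOMM7, TOMM20 and TOMM34 each had 1 NRF1 match. A match is a string of letters in a window, and binding was not measured.

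TOMM40L (ENSG00000158882.14, chr1:161225939-161230744, + strand), the channel paralog, was far less abundant than TOMM40. It had 5.58 and 6.54 CPM in NC, 4.48 and 6.25 in si-circ235-1 and 7.49 and 5.45 in si-circ235-2. The 3 conditions overlapped, and the log2 fold change was -0.17 with si-circ235-1 (interval -0.84 to 0.49, adjusted p = 0.771) and 0.09 with si-circ235-2 (-0.57 to 0.75, adjusted p = 0.843). Per kilobase of merged exons, TOMM40 stood 51.3 and 30.7 times above TOMM40L in NC, 19.9 and 13.9 times in si-circ235-1 and 15.7 and 19.0 times in si-circ235-2. TOMM40L shared 20.2% of its exon bases with other genes, mainly NR1I3 on the opposite strand, which had at most 12 reads in a library.

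Unlike TOMM40, all 3 receptors had higher means than NC with si-circ235-1, and none of them passed the test against NC. TOMM22 (ENSG00000100216.5, chr22:38681948-38685421, + strand), the central receptor that also ties the channel subunits together, was at 115.6 and 85.7 CPM in NC, 151.9 and 176.9 in si-circ235-1 and 100.8 and 92.2 in si-circ235-2. Both si-circ235-1 libraries were above the other 4, and the si-circ235-2 libraries lay between the NC libraries. The log2 fold change with si-circ235-1 was 0.71 (SE 0.20, interval 0.27 to 1.15), just outside the threshold (adjusted p = 0.0613), and it passed in 6 of 13 alternative settings, with an adjusted p of 0.0165 in DESeq2. With si-circ235-2 it was -0.06 (interval -0.50 to 0.38, adjusted p = 0.842). Between the siRNAs TOMM22 was lower with si-circ235-2, by a log2 fold change of -0.77 (SE 0.20, adjusted p = 0.0115), but the call did not hold without si-circ235-1 replicate 2 (-0.66, adjusted p = 0.0856), without si-circ235-2 replicate 2 (-0.70, adjusted p = 0.0616) or without TMM factors (-0.43, adjusted p = 0.0709).

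TOMM20 (ENSG00000173726.10, chr1:235109336-235128936, − strand), the main receptor of presequences, had 141.0 and 153.0 CPM in NC, 204.6 and 243.8 in si-circ235-1 and 180.5 and 157.5 in si-circ235-2. Every knockdown library was above both NC libraries. The log2 fold changes of 0.61 (SE 0.19, adjusted p = 0.0758) and 0.20 (SE 0.19, adjusted p = 0.438) did not pass the threshold, although DESeq2 gave an adjusted p of 0.0268 for si-circ235-1. Between the siRNAs TOMM20 was at -0.41 (adjusted p = 0.102), and after correction for transcript length and GC content at -0.42 (adjusted p = 0.0441). TOMM70 (ENSG00000154174.7, chr3:100363431-100401398, − strand), the receptor of carrier proteins, had 67.8 and 78.4 CPM in NC, 87.2 and 95.0 in si-circ235-1 and 96.4 and 97.9 in si-circ235-2. Its knockdown libraries were again all above NC, at 0.32 (SE 0.18, adjusted p = 0.288) and 0.41 (SE 0.18, adjusted p = 0.0973) on the log2 scale, without passing the threshold. The direction of TOMM20 and TOMM70 against NC was positive in all 13 alternative settings of each contrast, and for TOMM70 with si-circ235-2 the value ranged from 0.03, after correction for transcript length and GC content, to 0.66 without TMM factors (adjusted p = 0.0281), where the median of all genes was itself 0.25.

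TOMM7 (ENSG00000196683.10, chr7:22812628-22822852, − strand), a small subunit that also helps to hold PINK1 at the outer membrane, was the 1 member of the 7 tested that passed the test against NC, with si-circ235-2. Its level was 97.7 and 51.4 CPM in NC, 62.3 and 84.6 in si-circ235-1 and 38.2 and 33.9 in si-circ235-2. Both si-circ235-2 libraries were below the other 4, and the si-circ235-1 libraries fell within the wide range of NC. TOMM7 fell with si-circ235-2, by a log2 fold change of -1.05 against NC (SE 0.28, interval -1.67 to -0.42, adjusted p = 0.0187) and -1.03 against si-circ235-1 (SE 0.28, adjusted p = 0.0155). With si-circ235-1 it was -0.02 against NC (interval -0.64 to 0.59, adjusted p = 0.975). The call against NC rests on NC replicate 1, since without that library the log2 fold change was -0.52 (adjusted p = 0.230). The call against si-circ235-1 did not hold without si-circ235-1 replicate 2 (-0.79, adjusted p = 0.132), without TMM factors (-0.69, adjusted p = 0.0502) or after correction for transcript length and GC content (-0.61, adjusted p = 0.0664).

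The 2 other small subunits were barely measured in these counts. TOMM5 (ENSG00000175768.12, chr9:37582646-37592642, − strand) had 16 and 21 reads in NC, 1 and 10 in si-circ235-1 and 16 and 11 in si-circ235-2. With si-circ235-1 the fitted log2 fold change was -1.79, with an interval from -3.48 to -0.11 and an adjusted p of 0.175, and with si-circ235-2 it was -0.68 (adjusted p = 0.477). These values turn on single libraries, with -3.92 for si-circ235-1 without its replicate 2 and -1.06 without its replicate 1, and -1.14 to -0.30 for si-circ235-2 over the libraries left out. TOMM6 (ENSG00000214736.7, chr6:41787662-41789898, + strand) had 0 reads in all 6 libraries and was not tested. At these depths a count of 0, which allows up to 3 reads per library, leaves room for 0.143 to 0.210 CPM by counting error alone. The annotation places all 637 exon bases of TOMM6 inside exons of ENSG00000124593, a gene on the same strand that had 9 to 42 reads per library. For TOMM5, 84.2% of the 808 bases of its longest coding transcript lay in exons of the longer genes ENSG00000256966 and ENSG00000255872 on the same strand, which had at most 4 reads in any library. The part of these overlaps in the low counts was not tested, and a count of 0 here is not taken as absence of the transcript. The import gene PAM16, of whose exon bases 21.9% are shared with CORO7-PAM16, likewise had at most 3 reads.

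TOMM34 (ENSG00000025772.7, chr20:44942130-44960486, − strand) was called in no contrast. It had 149.4 and 141.2 CPM in NC, 164.4 and 151.4 in si-circ235-1 and 139.0 and 118.2 in si-circ235-2. Both intervals held 0, with log2 fold changes of 0.12 (interval -0.27 to 0.51, adjusted p = 0.724) and -0.18 (interval -0.57 to 0.22, adjusted p = 0.479).

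**Figure D2:**
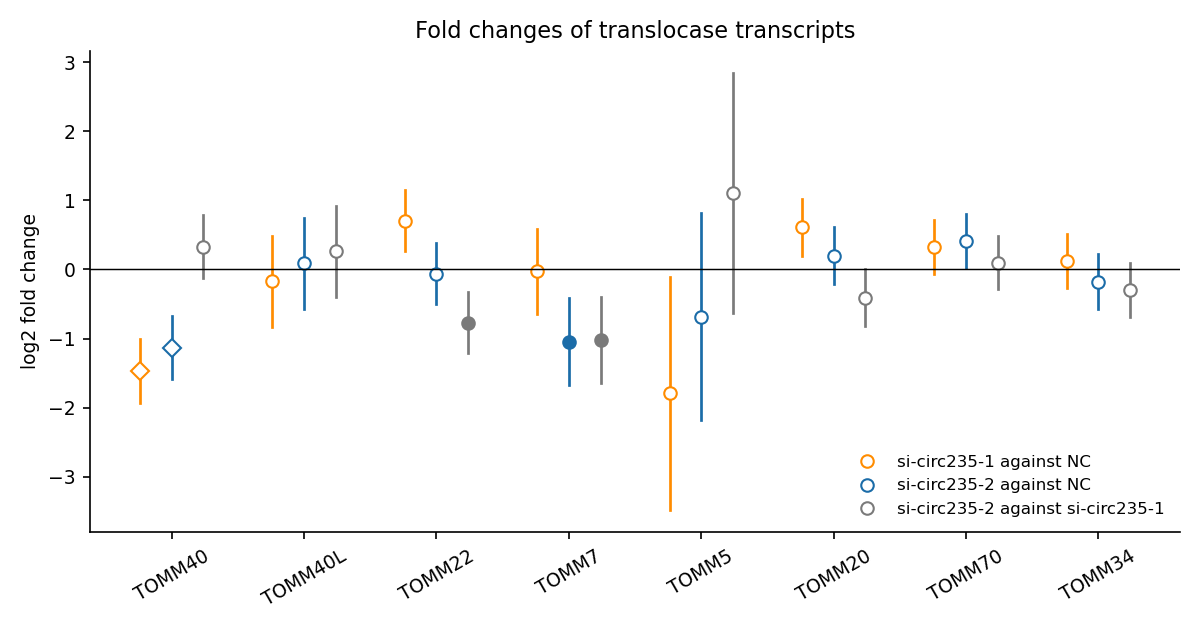
Log2 fold change of each tested member in the 3 contrasts, with 95% intervals. Filled circles passed an adjusted p of 0.05, and open circles did not. The open diamonds mark TOMM40 against NC, which was not tested because it was chosen on those contrasts, and their intervals take no account of that choice. TOMM7 with si-circ235-2 against NC and TOMM7 and TOMM22 between the siRNAs are filled, and the TOMM5 interval with si-circ235-1 runs from -3.48 to -0.11.

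Over the members other than TOMM40, 7 were tested against NC. With si-circ235-1 none passed in edgeR. Before adjustment 3 had a p under 0.05, and DESeq2 called 2, TOMM20 and TOMM22, both higher. DESeq2 called 10.8% of all genes in that contrast, 5.85% lower and 5.0% higher. Of all 14415 genes tested in edgeR in that contrast 5.88% were called, 3.64% lower and 2.24% higher. With si-circ235-2, TOMM7 was the 1 member called, where 31.4% of all genes were called, 15.7% lower and 15.7% higher. Between the siRNAs 2 of 8 members were called, TOMM7 and TOMM22, both lower with si-circ235-2, where 39.7% of all genes were called, 18.6% lower and 21.1% higher. After correction for transcript length and GC content the 2 members called were TOMM22 and TOMM20. That fit called 40.1% of all genes, 20.4% lower and 19.7% higher. The members' shares were 14.3% and 25.0% in the last 2 contrasts, from 7 and 8 genes. The median log2 fold change of the 7 members was 0.12 with si-circ235-1 and -0.06 with si-circ235-2, against -0.03 and -0.00 for all genes tested.

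Levels of different genes were compared per kilobase of merged exons. In NC the order was TOMM40 (74.0 ± 18.3 CPM per kilobase, SD, n = 2), TOMM34 (70.5 ± 2.81), TOMM22 (46.0 ± 9.67), TOMM7 (42.6 ± 18.7), TOMM20 (41.5 ± 2.41), TOMM70 (13.6 ± 1.39), TOMM40L (1.84 ± 0.207) and TOMM5 (0.320 ± 0.0454), with TOMM6 at 0. TOMM40 and TOMM34 did not differ beyond their spread, nor did TOMM22, TOMM7 and TOMM20, whereas TOMM70 and the 2 genes after it each stood apart from the gene before. In si-circ235-1 TOMM40 was 5th, at 26.8 ± 0.479 CPM per kilobase, behind TOMM34, TOMM22, TOMM20 and TOMM7. In si-circ235-2 it was 4th, at 33.7 ± 3.08, behind TOMM34, TOMM20 and TOMM22. With the longest coding transcript as the length, TOMM7 came first in NC at 95.9 ± 42.1 and TOMM40 second at 78.2 ± 19.4, and in si-circ235-2 TOMM40 came 5th at 35.6 ± 3.26, behind TOMM7 as well (46.4 ± 3.90), so the order depends on the length used.

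As a share of the summed level per kilobase, TOMM40 made up 27.0% and 23.6% of the member transcripts in NC, 9.44% and 8.32% in si-circ235-1 and 14.8% and 14.7% in si-circ235-2. The shares of the 3 conditions did not overlap, and si-circ235-2 lay between the other two. The ratio of channel to central receptor, TOMM40 to TOMM22 per kilobase, was 1.65 and 1.56 in NC, 0.391 and 0.327 in si-circ235-1 and 0.779 and 0.749 in si-circ235-2. This ratio is independent of the scaling of the libraries, and its replicates lay closer together than those of either gene in NC. Against TOMM20 the NC libraries were further apart, at 2.18 and 1.41, with 0.469 and 0.384 for si-circ235-1 and 0.703 and 0.708 for si-circ235-2. Against TOMM70 the higher NC library was at 6.91, and both NC libraries lay above the highest siRNA library, which was at 2.00. Against TOMM34 the ratio was 1.20 and 0.891 for NC, 0.340 and 0.360 for si-circ235-1 and 0.532 and 0.550 for si-circ235-2. Against TOMM7 it was 1.56 and 2.08 for NC, 0.762 and 0.547 for si-circ235-1 and 1.64 and 1.63 for si-circ235-2, so that with the small subunit as the reference si-circ235-2 lay within NC. Since TOMM40 was chosen for being low, its own part in these shares is a description. Without TOMM40, the summed level of the other members was 578.2 and 517.5 CPM in NC, 674.9 and 758.5 in si-circ235-1 and 563.4 and 505.7 in si-circ235-2. The si-circ235-1 libraries were the highest on this sum, and those of si-circ235-2 overlapped NC.

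**Figure D3:**
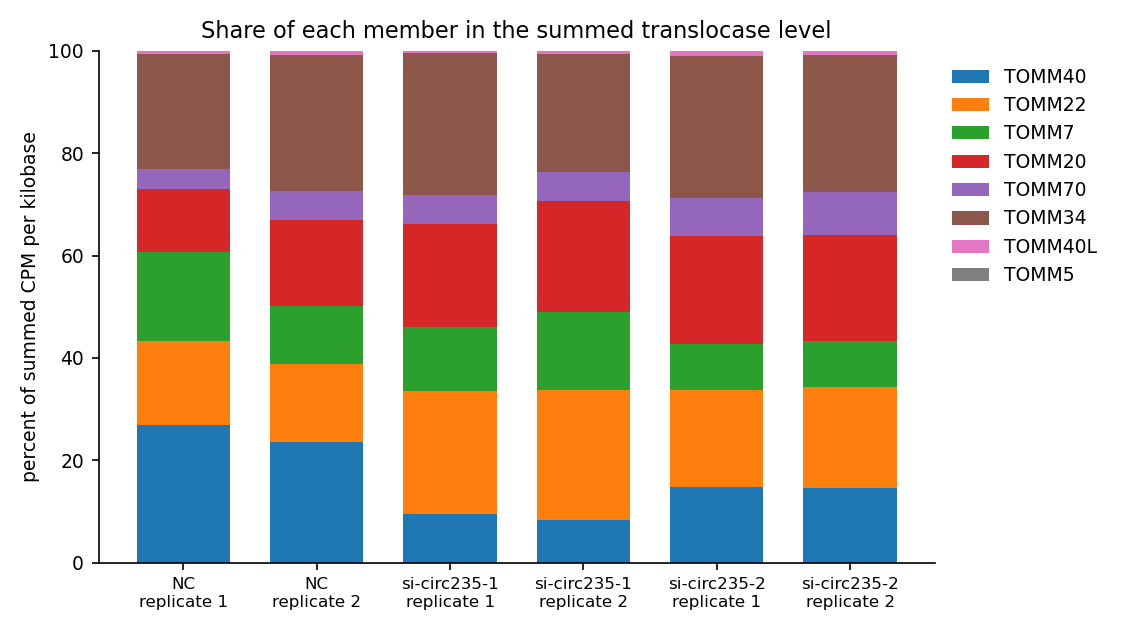
Share of each member in the summed CPM per kilobase of the translocase genes, 1 bar per library. The TOMM40 segment at the base shrinks from 27.0% and 23.6% in NC to 9.44% and 8.32% in si-circ235-1 and 14.8% and 14.7% in si-circ235-2, and the TOMM22 segment is widest in si-circ235-1.

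Pseudogenes named for the members took few reads. The 4 TOMM40 pseudogenes together had 7 to 41 reads per library, at most 1.72% of the TOMM40 count, the 4 TOMM20 pseudogenes had 1 to 5 reads, and the 6 TOMM22 pseudogenes had none. Whether reads of the members were lost to these copies during counting was not tested.

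The genes beside TOMM40 on chromosome 19 are given for comparison, without a test of their difference from TOMM40. NECTIN2, which encodes a cell adhesion protein, ends 1340 bases upstream of TOMM40 and had 142.2 and 123.2 CPM in NC, 144.5 and 113.5 in si-circ235-1 and 84.2 and 77.4 in si-circ235-2. APOE, an apolipoprotein gene that starts 2064 bases downstream, had 49.2 and 22.5 CPM in NC, 32.7 and 43.4 in si-circ235-1 and 17.2 and 15.2 in si-circ235-2. APOC1, another apolipoprotein gene, had 23 to 55 reads per library. With si-circ235-1 none of the 3 passed the test, and the log2 fold changes were -0.04 (interval -0.46 to 0.38) for NECTIN2, 0.09 (-0.62 to 0.79) for APOE and -0.32 (-1.15 to 0.52) for APOC1. With si-circ235-2, where 15.7% of all genes were called lower, all 3 were lower, by log2 fold changes of -0.72 (SE 0.19, adjusted p = 0.0173), -1.15 (SE 0.33, adjusted p = 0.0228) and -1.26 (SE 0.40, adjusted p = 0.0338). None of these 3 calls held after correction for transcript length and GC content, where NECTIN2 stood at -0.31, APOE at 0.03 (adjusted p = 0.937) and APOC1 at -0.75. All 3 were lost without NC replicate 1, at -0.61 for NECTIN2, -0.48 for APOE and -1.16 for APOC1, and without TMM factors, at -0.45 (adjusted p = 0.0851), -0.85 (0.0534) and -1.0 (0.0747). The calls of NECTIN2 and APOC1 were also lost without si-circ235-2 replicate 2, at -0.66 and -1.0, and that of APOC1 without NC replicate 2 (-1.34) and in DESeq2 (-1.26, adjusted p = 0.0814), where the value was not smaller. The next genes within 50 kb, APOC4, APOC4-APOC2 and APOC2, had no reads.

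The genes whose log2 CPM followed TOMM40 most closely over the 6 libraries, by Euclidean distance after centring each gene on its mean and among 10377 genes with a mean of at least 5 CPM, were SCRN2 (distance 0.0912), SAMD10 (0.190), PNPLA2 (0.246), HGH1 (0.307) and PRR36 (0.316). SCRN2 had 35.0 and 25.2 CPM in NC, 10.6 and 10.3 in si-circ235-1 and 14.2 and 13.2 in si-circ235-2, and PNPLA2, which encodes the adipose triglyceride lipase, had 95.7 and 75.6, 36.2 and 28.9, and 42.1 and 36.6. No other member was among them. Of the 6 others in that set the nearest were TOMM40L (distance 1.56, 2993rd), TOMM34 (1.60, 3330th) and TOMM7 (1.69, 4030th), and TOMM22 was the farthest at 2.17 (7894th). Among the 5 nearest genes, the promoter window of SCRN2 held 1 CCAAT and those of PNPLA2 and PRR36 none. No count is given for SAMD10 and HGH1.

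**Figure D4:**
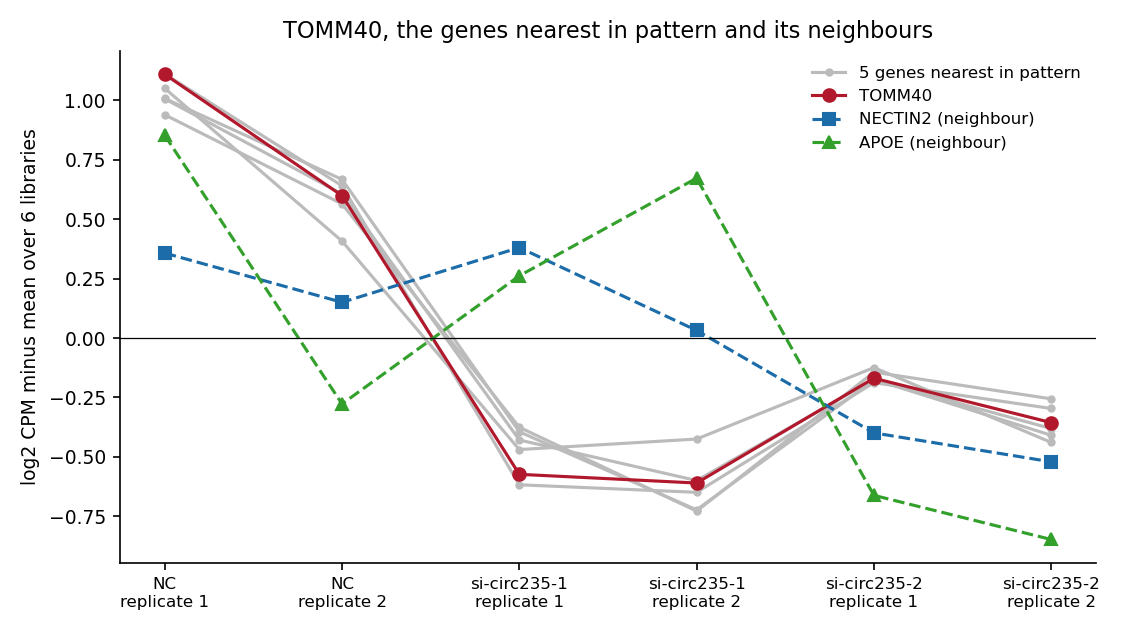
Log2 CPM of TOMM40, of the 5 genes nearest to it in pattern and of 2 neighbours on chromosome 19, each minus its own mean over the 6 libraries. Lines join the values of 1 gene across libraries and carry no order. TOMM40 and the grey lines drop in both knockdown conditions, whereas NECTIN2 and APOE are lowest in si-circ235-2 and stay within the NC range or near it in si-circ235-1.

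The rest of the import route was followed in a list of 51 genes, of which 49 were tested (TOMM20L, with at most 9 reads in a library, and PAM16 were not). With si-circ235-1, 3 genes were higher and 1 lower, or 8.16% of the list against 5.88% of all genes. Without TMM factors 0 were higher and 1 lower (2.04%), where 3.67% of all genes were lower and 1.24% higher. TIMM8A, a small TIM chaperone, rose by 1.02 on the log2 scale (SE 0.26, adjusted p = 0.0472), from 28.2 and 18.6 CPM in NC to 38.0 and 57.2. GRPEL2, a nucleotide exchange factor of mitochondrial HSP70, rose by 0.82 (SE 0.21, adjusted p = 0.0479), and DNAJA1, a cytosolic HSP40 cochaperone of precursors, by 0.71 (SE 0.18, adjusted p = 0.0472). TIMM23B, a near copy of the TIM23 channel gene, was lower, at a log2 fold change of -1.20 (SE 0.31, adjusted p = 0.0470). Its 3.01 to 8.07 CPM are uncertain, because reads may be split between it and TIMM23, which was at 0.38 (adjusted p = 0.258). All 4 calls lay just under the threshold, and each was lost without either NC library or either si-circ235-1 library, in fits that called 0.0% to 2.75% of all genes. Without TMM factors the calls of DNAJA1 (0.62, adjusted p = 0.0654), GRPEL2 (0.74, adjusted p = 0.100) and TIMM8A (0.96, adjusted p = 0.0569) were also lost. With the replicate block those of TIMM8A (1.03, adjusted p = 0.0659) and TIMM23B (-1.21, adjusted p = 0.0534) were lost, where the values were not smaller. The values kept their direction, over libraries left out, at 0.66 to 0.79 for DNAJA1, 0.61 to 1.00 for GRPEL2, 0.70 to 1.35 for TIMM8A and -1.34 to -1.06 for TIMM23B.

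With si-circ235-2 the list, which was drawn up with earlier results of these data known, leaned downward. Of 49 genes 15 were lower, or 30.6% against 15.7% of all genes, and 2 were higher. Without TMM factors the balance was 9 lower (18.4%) and 5 higher (10.2%), where 8.98% of all genes were lower and 22.0% higher. With TMM, the list's median log2 fold change was -0.27 against -0.00 over all genes. TIMM13 fell by 1.64 on the log2 scale (SE 0.28, adjusted p = 0.00330), from 225.3 and 125.0 CPM in NC to 61.4 and 51.4, with 139.0 and 199.1 in si-circ235-1. TIMM10 fell by 1.57 (SE 0.27, adjusted p = 0.00327). Both encode hexamer-forming chaperones that carry hydrophobic precursors across the intermembrane space. TIMM17B, a TIM23 channel subunit, fell by 1.56 (SE 0.25, adjusted p = 0.00270) and ROMO1, a small inner membrane protein of the same complex, by 1.55 (SE 0.31, adjusted p = 0.00507), from 336.8 and 178.7 CPM in NC to 102.2 and 74.2. The ROMO1 value was -0.70 after correction for transcript length and GC content (adjusted p = 0.0335). Its call was lost when a replicate block was added to that correction (-0.70, adjusted p = 0.0552) and without NC replicate 1 (-1.03). TIMM13 stood at -0.89 after the same correction (adjusted p = 0.0214). MTX1, a metaxin of the sorting and assembly complex, fell by 1.54 (SE 0.26, adjusted p = 0.00310), from 48.5 and 32.9 CPM to 16.3 and 11.9. With si-circ235-1 the first 4 of these were between -0.05 and 0.12 and MTX1 at -0.45 (adjusted p = 0.300). The 2 that rose were HSPA9, the mitochondrial HSP70 (0.69, SE 0.20, adjusted p = 0.0225), and XPNPEP3, a peptidase (0.75, SE 0.22, adjusted p = 0.0247), both named after their values were seen. After correction for transcript length and GC content they stood at 0.20 (adjusted p = 0.312) and 0.06 (adjusted p = 0.841). Both calls were also lost without NC replicate 1 (0.61 and 0.65), NC replicate 2 (0.78 and 0.86) or si-circ235-2 replicate 1 (0.63 and 0.61), and that of HSPA9 without si-circ235-2 replicate 2 (0.75).

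By group, with si-circ235-2 the called genes were 4 of 7 lower in the TIM23 complex, 3 of 6 among the small TIM chaperones, 3 of 6 lower and 1 higher among the presequence peptidases, 2 of 6 lower and 1 higher in the import motor, and 1 lower each in the sorting and assembly complex, the oxidative import pathway and the outer membrane pores. No gene of the TIM22 complex, the outer membrane insertase or the cytosolic chaperones was called. Over all genes 15.7% were called lower and 15.7% higher in this contrast, and counts from groups this small are not read as a result about any group. Of the whole list, 0 genes were called in the same direction under both siRNAs. Of all 14415 genes tested, 92 were called lower under both, so a 0 among 49 genes is not read as a result about the list. Between the siRNAs 22 of the list were lower and 3 higher with si-circ235-2, or 44.9% lower against 18.6% of all genes. Without TMM factors 14 were lower (28.6%) and 9 higher (18.4%), against 10.4% and 31.5% of all genes. The 15 genes lower with si-circ235-2 had a median longest transcript of 1905 bases and a GC content of 52.3%, against 2808 bases and 44.1% for the other 34 listed genes and 3354 bases and 48.4% for all genes tested. After correction for both, 12 genes of the list were called, all lower, where 14.5% of all genes were lower and 11.5% higher. NC replicate 1 was above NC replicate 2 for each of the 5 named falls, and without it 4 genes of the list were called, all lower, where calls over all genes also dropped to 2.23% lower and 2.86% higher. Without si-circ235-2 replicate 2, 9 were lower and 1 higher, against 11.5% and 10.4% of all genes. Between the siRNAs, 12 were called without si-circ235-1 replicate 2, all lower, against 8.82% lower of all genes.

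**Figure D5:**
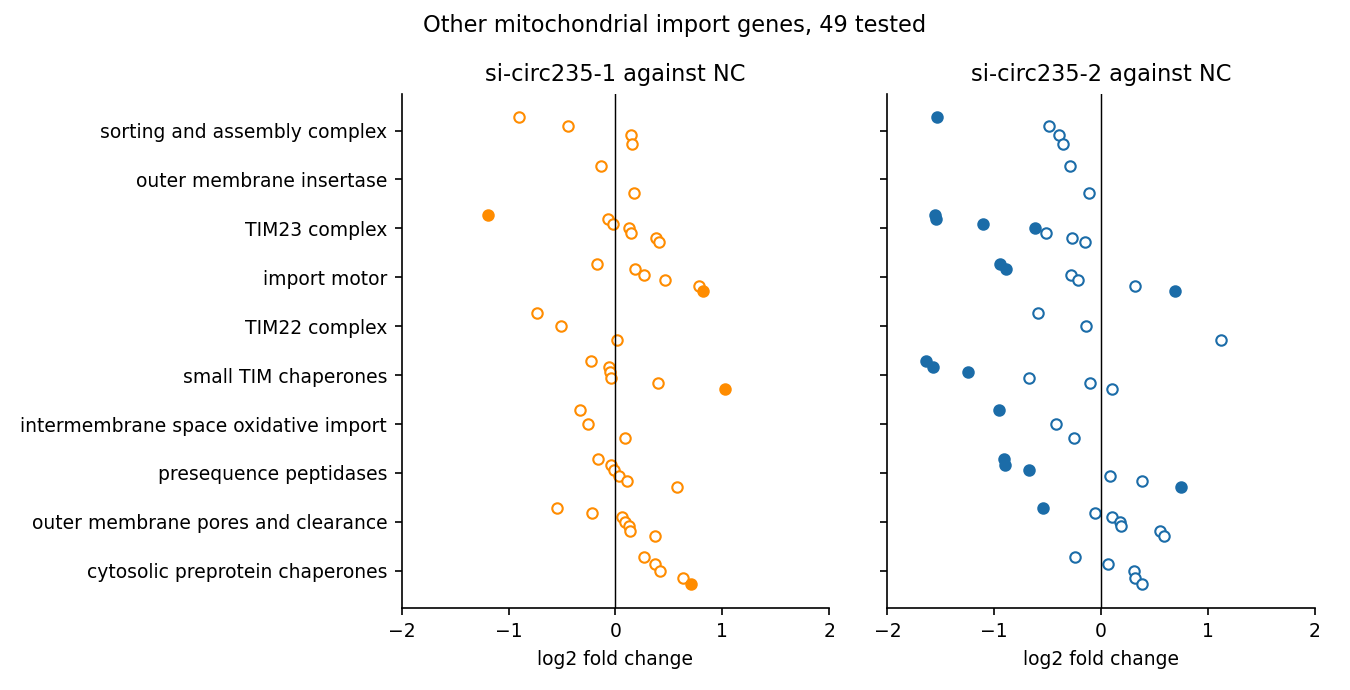
Log2 fold change against NC of the 49 tested import genes, grouped by the complex or step they belong to, with si-circ235-1 on the left and si-circ235-2 on the right. Filled points passed an adjusted p of 0.05. On the left 4 points are filled, and on the right 17, of which 15 lie left of 0, mainly in the TIM23 complex, the small TIM chaperones and the presequence peptidases.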

How the data were processed

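T24 libraries were made from polyadenylated RNA and sequenced without strand information. The authors deposited raw counts, whole numbers of reads per Ensembl gene without normalization. The submitters' processing notes name FastQC, cutadapt, STAR and hg38, and no source used here names the counting tool or its annotation. Counting without strand can mix reads of overlapping genes. Names, lengths and 3′ UTRs came from GENCODE 29 (99.5% of identifiers matched), and miRNA and promoter sequences from RefSeq.

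Counts were fitted in edgeR 4.0.16 (R 4.3.3) with filterByExpr, TMM factors and the quasi-likelihood test over all 6 libraries, with Benjamini-Hochberg adjustment over 14415 genes at 0.05. In data simulated for si-circ235-2 against NC, 83% of 200 genes with a log2 change of 2 and 31% with a change of 1 were recovered. Only these 200 genes were changed in each simulation, whereas 31.4% of all genes were called in this contrast. Recovery with as many changed genes as in the data was not measured. Standard errors are the log2 fold change over the root of F. Replicates differed beyond sampling noise (chi-square per degree of freedom 21.7 to 33.3).

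The members and lists were chosen with earlier results of these data known. Named genes were all members, up to 5 called import genes per siRNA with the largest changes and a mean of at least 5 CPM, protein-coding genes within 50 kb of TOMM40, the 5 genes nearest to it in pattern, and overlapping genes.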

Additional observations from a re-analysis of the deposited data

How the results depend on the processing

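DESeq2, omission of TMM factors, omission of the filter, a fit of the 2 conditions alone, a replicate block, removal of a length and GC trend, both together, and leaving out each library were run. A condition left with 1 library is assumed to vary like the others. TOMM40 stayed lower than NC in all 13 alternatives of each contrast (-1.66 to -1.19 with si-circ235-1 and -1.36 to -0.86 with si-circ235-2). Deviations of same-numbered libraries from their group means correlated weakly, at -0.094, 0.149 and 0.139. With 2 libraries per condition these values do not settle whether same-numbered libraries were paired. The count of members called with si-circ235-1 went from 0 to 2 in DESeq2. It was 1 with no filter, 1 with the 2 conditions alone and 1 with the trend removed, and it moved with the library left out. Calls over all genes, 5.88% in the main fit, were 10.8%, 6.5%, 12.0% and 12.9% in these fits, in that order. For si-circ235-2 the count of members went from 1 to 2 without TMM factors, where calls over all genes went from 31.4% to 31.0%. This count also moved with the library left out. Between the siRNAs the count of members went from 2 to 1 without TMM factors. There TOMM7 and TOMM22 lost their calls and TOMM40 was called higher with si-circ235-2. The count was 1 with the replicate block and trend, and it moved with the library left out. Calls over all genes were 39.7% in the main fit, 41.8% without TMM factors and 37.1% with the block and trend. Import genes called with si-circ235-1 went from 4 to 1 without TMM factors and to 2 with the replicate block. Calls over all genes were 5.88% in the main fit, 4.91% without TMM factors and 6.5% with the block. The list count ranged from 0 to 6 over libraries left out, where calls over all genes moved the same way. With si-circ235-2 they went from 17 to 9 with the replicate block and trend and to 19 with the block alone, and ranged from 4 to 18 over libraries left out. Between the siRNAs, 25 became 27 with the replicate block, where calls over all genes went from 39.7% to 41.9%. The range over libraries left out was 12 to 26, and calls over all genes were again below the main fit in each.

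Among the values named, signs turned for members that were not called and for APOE. Over the libraries left out, TOMM40L ranged from -0.43 to 0.04 with si-circ235-1 and from -0.16 to 0.31 with si-circ235-2, TOMM7 with si-circ235-1 from -0.37 to 0.51 and TOMM22 with si-circ235-2 from -0.25 to 0.16. TOMM7 with si-circ235-1 was 0.00 in DESeq2 and 0.03 with the replicate block, and TOMM22 with si-circ235-2 was 0.21 without TMM factors. TOMM34 with si-circ235-2 was 0.08 without TMM factors and 0.02 with the trend removed, with or without the block, and between the siRNAs 0.04 without TMM factors. With the trend removed, with or without the block, TOMM70 between the siRNAs was -0.17 and APOE with si-circ235-2 was 0.03. The cause was not tested. With 2 libraries per condition, a log2 change of 1 was often missed in data simulated with 200 changed genes, fewer than were called in these contrasts.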
